A study of Mus musculus with 12 samples.

Results

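The effect of Hras loss in female mice was taken from 3 APP/PS1/Hras-/- females set against 3 APP/PS1 females, over 14951 of the 54532 genes in the deposited table. A gene was included where at least 3 of these 6 libraries reached 1 CPM, the count of a gene scaled to the total count of its library, and genes of the X and Y chromosomes were left out. Frontal cortex was taken at 9 months of age and its poly(A) RNA was sequenced, 1 library per mouse. The study also held 3 APP/PS1/Hras-/- males and 3 APP/PS1 males, which are used here for the spread between mice and for the comparison of the sexes. Every mouse of all 4 groups carried APP/PS1, so no group shows the cortex without the transgenes or Hras loss without them. The labels name neither the promoter of the transgenes nor the kind of Hras allele.

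Hras encodes a membrane-bound small GTPase which, like its close relative Nras, passes signals from growth factor and glutamate receptors to the RAF, MEK and ERK kinases and to PI3K. In neurons this route drives transcription of immediate early genes such as Fos, Egr1 and Arc. APP/PS1 mice carry human transgenes of familial Alzheimer's disease, App among them, and form amyloid plaques in the cortex, around which microglia and astrocytes take on reactive states.

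The Hras locus carries the genes that passed the test, so its sequence is shown first. Hras and Lrrc56 start back to back on opposite strands. The 125 bases between their RefSeq start sites (GRCm38.p6, chr7:141194005-141194129, minus strand, read in the direction of Hras) come first. As printed, they begin beside the Lrrc56 start and end beside the Hras start. Their label names the genes and not this order. Capitals mark 1 CCAAT and 2 GGGCGG motifs found in a search of both strands, none of them overlapping another. GGGCGG is held by 26.9% and CCAAT by 21.9% of 32851 promoter windows of the same length, and the GC content of 69.6% compares with a median of 54.4% over those windows. Gm5905, a processed pseudogene downstream of Hras, copies the coding sequence of the ribosomal protein gene Rps9. Over 585 aligned columns the 2 sequences are 97.3% identical, with 11 substitutions and 5 gap columns. The 120-base stretch of Gm5905 with the most substitutions (GENCODE M21, GRCm38, chr7:141177953-141178072, minus strand) is set beside the matching bases 398 to 517 of the Rps9 coding sequence, and capitals mark the 5 bases that differ.
Hras to Lrrc56: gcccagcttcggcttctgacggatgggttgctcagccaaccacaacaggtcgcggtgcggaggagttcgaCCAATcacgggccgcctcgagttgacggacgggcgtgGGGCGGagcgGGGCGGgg
Gm5905: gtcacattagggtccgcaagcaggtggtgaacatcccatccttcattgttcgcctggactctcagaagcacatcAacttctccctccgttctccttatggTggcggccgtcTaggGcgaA
Rps9: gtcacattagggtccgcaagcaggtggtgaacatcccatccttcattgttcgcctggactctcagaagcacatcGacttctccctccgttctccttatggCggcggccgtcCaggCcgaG

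Total counts ran from 13984692 to 18169495 in APP/PS1/Hras-/- females and from 17019268 to 20174131 in APP/PS1 females. The RNA integrity number (RIN) was 8.4 ± 0.1 in APP/PS1/Hras-/- females and 8.53 ± 0.0577 in APP/PS1 females (SD, n = 3 each, 2-sided exact permutation p = 0.3). Between 23005 and 23452 genes had a count in the APP/PS1/Hras-/- libraries and between 24043 and 24124 in the APP/PS1 libraries, without overlap (2-sided exact permutation p = 0.1, the smallest that 3 against 3 allow). Xist was at 541 to 935 CPM in APP/PS1/Hras-/- females and at 887 to 994 CPM in APP/PS1 females, and the summed Y-linked genes were at most 0.253 CPM in any of the 6. The libraries differed in tissue content. Ttr, the main transcript of choroid plexus epithelium, stood at 549, 56.3 and 3.52 CPM in APP/PS1/Hras-/- females and at 32.3, 2844 and 58.9 CPM in APP/PS1 females. APP/PS1 female 2, with the highest Ttr, lay farthest out (32.5) on a first principal component with 37.0% of the variance.

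In APP/PS1/Hras-/- females Hras fell and the pseudogene Gm5905 downstream of it rose strongly, and no other of the 14951 genes passed the quasi-likelihood test of edgeR at an adjusted p under 0.05. The 2 genes called were thus 0.0134% of those tested, with 1 in each direction (0.00669%), and limma-voom called the same number. DESeq2 called 5 (0.0334%), adding Lrrc56, Mbd4 and Polr1a. At an unadjusted p under 0.05, edgeR had 573 genes (3.83%), of which 181 (1.21%) were higher and 392 (2.62%) lower in APP/PS1/Hras-/- females. The 3 libraries of one genotype lay wholly above or below the other 3 for 1386 genes (9.27%), 587 of them higher (3.93%) and 799 lower (5.34%) in APP/PS1/Hras-/- females.

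Hras (ENSMUSG00000025499, GRCm38 chromosome 7, 141189105 to 141194005, minus strand) had 19.3, 20.4 and 23.1 CPM in APP/PS1/Hras-/- females and 77.9, 79.9 and 74.1 CPM in APP/PS1 females. All 3 APP/PS1/Hras-/- females lay far below all 3 APP/PS1 females, and the spread within either group was a small part of the gap. Hras fell, with a log2 difference of -1.88 (95% interval -2.08 to -1.68, SE 0.103, adjusted p = 1.08e-06 in edgeR). Means were 20.97 ± 1.97 CPM in APP/PS1/Hras-/- females and 77.3 ± 2.94 CPM in APP/PS1 females (SD, n = 3 each), so reads assigned to Hras stood at 27.1% of the APP/PS1 level. The table holds 1 count per gene, and which exons the remaining reads came from cannot be read from it.

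Gm5905 (ENSMUSG00000110275, 141177885 to 141178464, minus strand) lies 10641 bp downstream of Hras. It had 48.8, 64.5 and 52.5 CPM in APP/PS1/Hras-/- females and 0.709, 0.751 and 0.496 CPM in APP/PS1 females. The pseudogene was near the lower limit of detection in every APP/PS1 female and abundant in every APP/PS1/Hras-/- female. It rose, with a log2 difference of 6.40 (95% interval 5.98 to 6.82, SE 0.216, adjusted p = 5.01e-09 in edgeR), an 84.8-fold difference of the means of 55.3 ± 8.24 and 0.652 ± 0.136 CPM in APP/PS1/Hras-/- and APP/PS1 females (SD, n = 3 each). The parent gene Rps9 was at 174 ± 12.3 CPM in APP/PS1/Hras-/- females and 169.5 ± 7.69 CPM in APP/PS1 females (SD, n = 3 each, 2-sided exact permutation p = 0.7). The labels do not say how reads that match both sequences were assigned, and the division of counts between Gm5905 and Rps9 is uncertain.

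A small nuclear RNA gene, Gm22019 (ENSMUSG00000077547, 141181216 to 141181311), lies between Gm5905 and Hras and was too weak for the 1 CPM filter. It is named because edgeR called it without that filter, after its values were seen. It had 7, 13 and 10 counts in APP/PS1/Hras-/- females and 0, 0 and 0 counts in APP/PS1 females. With 3 counts over the APP/PS1 group as the limit that a count of 0 allows, it was at least 11.9-fold higher in APP/PS1/Hras-/- females. In males it had 6, 9 and 7 counts in APP/PS1/Hras-/- mice and 0, 0 and 0 counts in APP/PS1 mice. Thus reads assigned to 2 annotated genes on the downstream side of Hras were present in all APP/PS1/Hras-/- libraries and at or near 0 in all APP/PS1 libraries. Which transcript these reads came from cannot be read from counts per gene.

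Lrrc56 (ENSMUSG00000038637, 141194157 to 141210055, plus strand), a leucine-rich repeat gene, lies on the other side of Hras, with a gap of 152 bp. It had 8.72, 10.2 and 10.5 CPM in APP/PS1/Hras-/- females and 5.21, 4.62 and 5.21 CPM in APP/PS1 females, and the groups did not overlap. Its log2 difference was 0.97 (SE 0.141), with an adjusted p of 0.0641 in edgeR and 0.000105 in DESeq2. The other tested neighbours on either side differed little, at -0.05 for the ribonuclease inhibitor Rnh1, -0.15 for the phosphatidylserine synthase Ptdss2, 0.02 for Phrf1 and 0.15 for the interferon regulator Irf7. With Hras left out, 4 of 42 tested genes within 1 Mb (9.52%) had an unadjusted p under 0.05 in edgeR, against 3.83% of all genes. Within 10 Mb 5 of 130 did so (3.85%). Gm5905 and Lrrc56 were among the 4 and among the 5, so neither share describes the other neighbours alone.

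**Figure D1:**
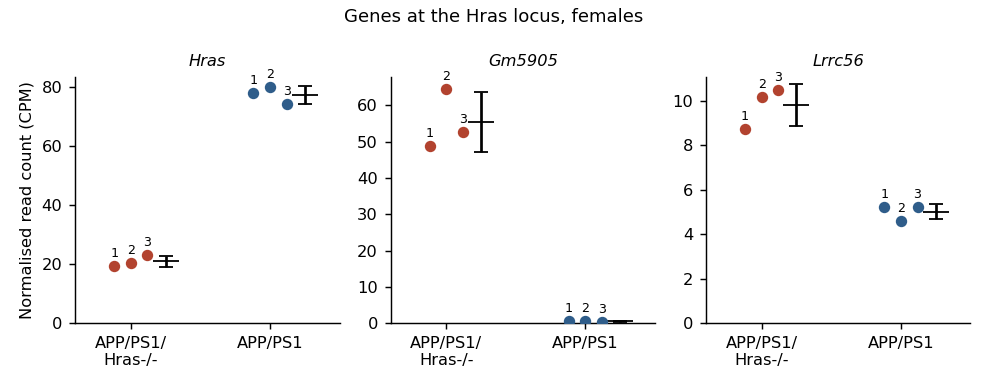
Normalised read counts (CPM) of Hras, Gm5905 and Lrrc56 in each female library, numbered by replicate, with APP/PS1/Hras-/- on the left of each panel and bars for the mean ± SD of 3 mice. Hras averaged 20.97 against 77.3 CPM, Gm5905 55.3 against 0.652 CPM and Lrrc56 9.80 against 5.02 CPM, and the groups did not overlap in any panel.

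App did not differ detectably. The table counts the mouse gene, and whether reads of the human transgene were assigned to it is not given. The gene, which encodes the amyloid precursor, was at 3972, 3165 and 3820 CPM in APP/PS1/Hras-/- females and at 3789, 3314 and 3280 CPM in APP/PS1 females. The ranges overlapped, and the log2 difference of 0.08 had a 95% interval of -0.14 to 0.30. Prnp, the prion protein gene, averaged 2332 ± 265 CPM in APP/PS1/Hras-/- females and 2341 ± 112 CPM in APP/PS1 females (SD, n = 3 each, 2-sided exact permutation p = 1). Of 21 genes that encode App, its relatives and its cleaving enzymes and adaptors, all 21 passed the filter and none was called. The groups did not overlap for 5 of them, 3 higher and 2 lower (23.8%, against 9.27% of all genes). Their median log2 difference was 0.01, against -0.003 over all genes, and Adam17, a sheddase of the alpha cleavage, had the lowest p among them, with 22.99, 25.6 and 20.1 CPM in APP/PS1/Hras-/- females and 26.1, 29.3 and 26.4 CPM in APP/PS1 females (-0.26, SE 0.116, edgeR adjusted p = 0.994).

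Away from chromosome 7, the genes with the smallest p were Mbd4 and Polr1a on chromosome 6, followed by Hba-a1 on chromosome 11. Of 785 tested genes on chromosome 6, 73 (9.30%) had an unadjusted p under 0.05, against 500 of 14166 (3.53%) elsewhere. The other autosomes held between 2.42% (chromosome 17) and 4.65% (chromosome 8). Groups did not overlap for 14.1% of chromosome 6 genes and for 9.00% of the rest. In bins of 25 Mb along chromosome 6 the share at an unadjusted p under 0.05 ran from 5.06% to 13.4%, and each of the 6 bins lay above the 3.53% found elsewhere. The share of chromosome 6 was 4.97%, against 3.44% elsewhere, without APP/PS1/Hras-/- female 3, and 6.75%, against 1.53% elsewhere, without APP/PS1 female 2. No difference of share was tested, since genes of 1 chromosome are not independent.

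**Figure D2:**
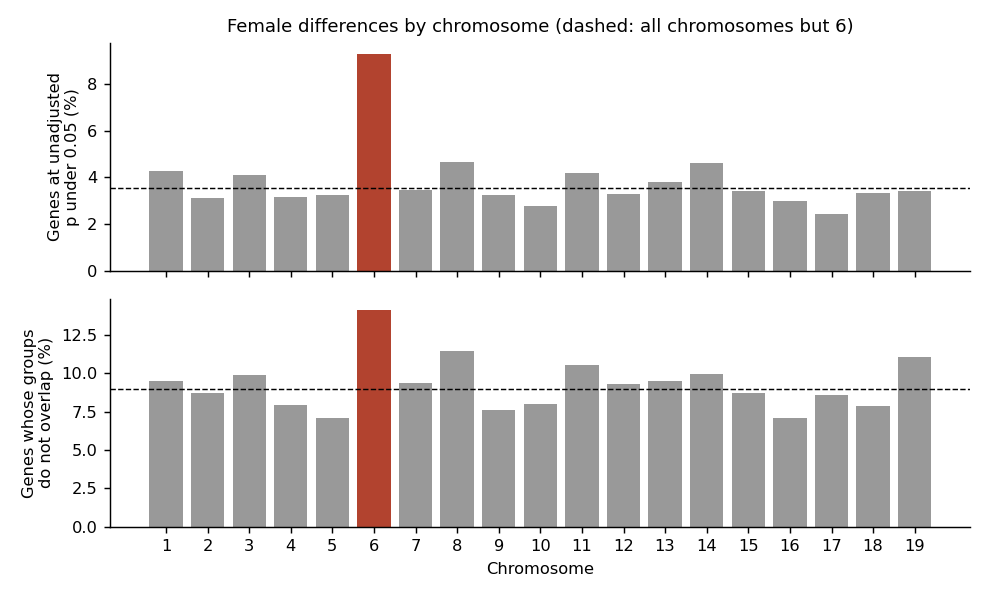
Percent of tested genes on each autosome with an unadjusted edgeR p under 0.05 (upper panel) and percent whose 3 APP/PS1/Hras-/- and 3 APP/PS1 females do not overlap (lower panel), with the level of all chromosomes but 6 as a dashed line. Chromosome 6 stands at 9.30% and 14.1%, against 3.53% and 9.00% elsewhere.

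Mbd4, a DNA glycosylase that removes thymine from G:T mismatches at CpG sites, had 9.11, 7.76 and 6.76 CPM in APP/PS1/Hras-/- females and 13.1, 12.3 and 14.7 CPM in APP/PS1 females. Polr1a, the largest subunit of RNA polymerase I, had 38.4, 29.7 and 33.3 CPM in APP/PS1/Hras-/- females and 49.5, 49.6 and 47.0 CPM in APP/PS1 females. Both genes were lower in every APP/PS1/Hras-/- female than in any APP/PS1 female. Mbd4 fell by 0.76 in DESeq2 (adjusted p = 0.0117) and Polr1a by 0.52 (adjusted p = 0.0127), while edgeR gave an adjusted p of 0.47 for each.

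Among the other chromosome 6 genes with the smallest p, Gapdh, the glycolytic enzyme, had 43.1, 31.5 and 29.4 CPM in APP/PS1/Hras-/- females and 53.7, 43.5 and 52.8 CPM in APP/PS1 females. The ranges came close, with APP/PS1/Hras-/- female 1 just under APP/PS1 female 2, and the log2 difference of -0.53 did not pass (SE 0.129, edgeR adjusted p = 0.994). Gapdh has many near-identical processed copies in the mouse genome, so its count depends on how shared reads were assigned. Anxa4, a calcium-dependent membrane-binding annexin, had 13.6, 32.8 and 19.1 CPM in APP/PS1/Hras-/- females and 7.49, 9.93 and 9.73 CPM in APP/PS1 females. Depp1, a target of FOXO transcription factors, had 3.23, 7.19 and 7.09 CPM in APP/PS1/Hras-/- females and 1.72, 2.19 and 2.78 CPM in APP/PS1 females. For both genes the groups did not overlap, and the APP/PS1/Hras-/- females differed among themselves by over 2-fold. Efcab12 (-0.76) and Fancd2 of the Fanconi anaemia DNA repair pathway (-0.76) lay lower in APP/PS1/Hras-/- females, and Smim10l1 (0.25) and the neuronal transcription factor Neurod6 (0.41) lay higher, with an edgeR adjusted p of 0.994 for each.

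**Figure D3:**
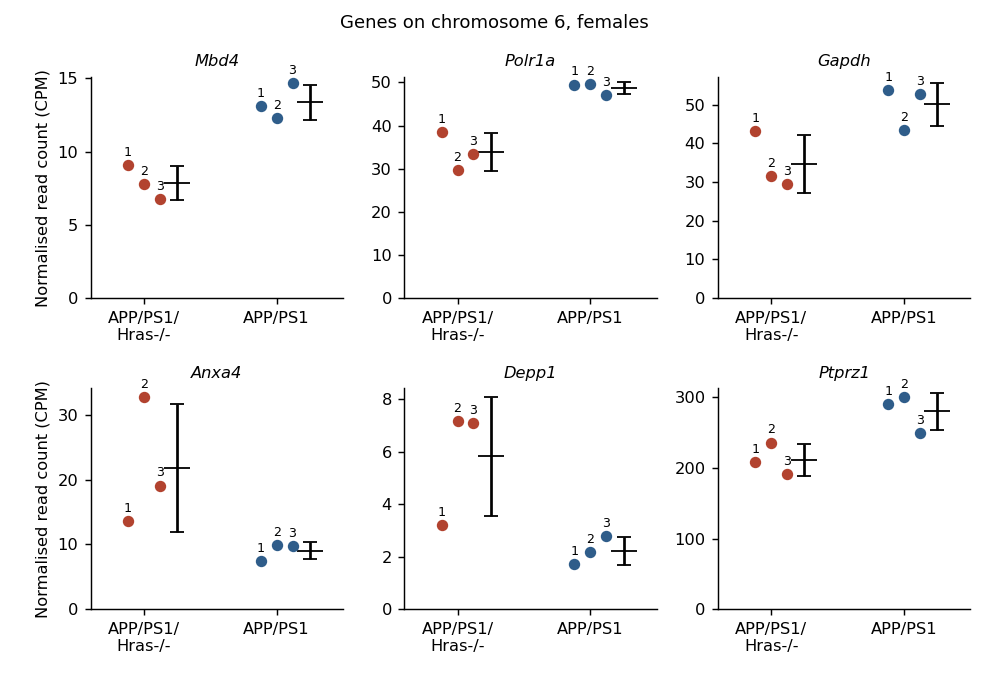
Normalised read counts (CPM) of 6 genes on chromosome 6 in each female library, numbered by replicate, with APP/PS1/Hras-/- on the left of each panel and bars for the mean ± SD of 3 mice. Mbd4, Polr1a, Gapdh and the proteoglycan receptor Ptprz1 are lower, and Anxa4 and Depp1 higher, in all 3 APP/PS1/Hras-/- females.

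Off chromosomes 6 and 7, no gene passed in edgeR or DESeq2. Hba-a1, an alpha globin, was low throughout, with 0.840, 0.356 and 0.605 CPM in APP/PS1/Hras-/- females and 3.44, 1.85 and 1.69 CPM in APP/PS1 females (-1.93, SE 0.4, edgeR adjusted p = 0.838). Hba-a1 passed the 1 CPM filter through the APP/PS1 females alone, so its lack of overlap was fixed by the filter. Ikzf2, a zinc finger transcription factor, had 3.23, 3.85 and 3.02 CPM in APP/PS1/Hras-/- females and 5.27, 6.47 and 5.41 CPM in APP/PS1 females. Both genes were lower in all 3 APP/PS1/Hras-/- females, as were the xenobiotic hydrolase Ephx1 (-0.48), the clustered protocadherin Pcdhb12 (-0.59) and the laminin chain Lama5 (-0.63), each with an edgeR adjusted p of 0.994. Higher values off chromosome 6 belonged to the peptidoglycan-binding protein Pglyrp1 (0.76) and the cholecystokinin receptor Cckbr (0.43), both on chromosome 7, the TFIIH subunit Gtf2h4 (0.43), Tmem59l (0.47), the zinc finger factor Klf6 (0.26) and the augmin subunit Haus8 (0.66). Their edgeR adjusted p was 0.994 each, and each was higher in all 3 APP/PS1/Hras-/- females.

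Genes of the Ras pathway other than Hras stayed near the level of APP/PS1 females. Of 38 Ras proteins, exchange factors, GTPase activators and processing enzymes, 37 passed the filter, 18 lay higher and 19 lower, and Hras was the only one called (2.70% of the 37, against 0.0134% of all genes, with Hras chosen as the targeted gene). The median log2 difference was -0.008. The groups did not overlap for 3 members that lay higher and 3 that lay lower, Hras among the latter (16.2%, against 9.27% of all genes). Nras had 49.7, 51.9 and 45.6 CPM in APP/PS1/Hras-/- females and 55.3, 51.6 and 46.5 CPM in APP/PS1 females (-0.06, SE 0.0853). This close relative of Hras overlapped between the groups. The neuronal exchange factor Rasgrf1 had 439.5, 419 and 396 CPM in APP/PS1/Hras-/- females and 393, 381 and 371 CPM in APP/PS1 females, without overlap (0.13, SE 0.0723, edgeR adjusted p = 0.994). Nras and Rasgrf1, and below Egr1, Fos, Trem2, Cst7 and Gfap, were chosen after their values were seen.

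Downstream, 16 of 18 genes of the RAF, MEK and ERK cascade passed the filter, with a median of -0.006, and the groups did not overlap for 1 of them, which lay higher (6.25%, against 3.93% of all genes higher). PI3K, Akt and RalGDS effectors passed in 29 of 29 cases with a median of 0.02. Among them Plce1, a phospholipase C that Ras binds, had 16.1, 15.7 and 14.5 CPM in APP/PS1/Hras-/- females and 25.4, 29.1 and 17.6 CPM in APP/PS1 females (-0.63, SE 0.221, edgeR adjusted p = 0.994). The transcriptional output and feedback of ERK leaned upward, with 16 of 20 tested genes (of 21) higher in APP/PS1/Hras-/- females, a median of 0.17 and none called. Spry2, a feedback inhibitor of receptor signalling, had 68.1, 56.7 and 52.5 CPM in APP/PS1/Hras-/- females and 49.7, 42.3 and 56.0 CPM in APP/PS1 females (0.26, SE 0.119). The median of this list was 0.01 without APP/PS1/Hras-/- female 1, the library with the highest Spry2.

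Immediate early genes, which neurons transcribe within minutes of activity, lay mostly higher in APP/PS1/Hras-/- females. Of 48 such genes 47 passed the filter, 42 lay higher and 5 lower, the median was 0.28, none was called, and the groups did not overlap for 1 of them (2.13%, against 3.93% of all genes higher). Egr1 had 659, 342 and 372 CPM in APP/PS1/Hras-/- females and 258, 239 and 438 CPM in APP/PS1 females. Fos had 75.8, 61.6 and 57.2 CPM in APP/PS1/Hras-/- females and 30.4, 35.5 and 68.8 CPM in APP/PS1 females. For both genes APP/PS1 female 3 lay within the range of the APP/PS1/Hras-/- females, and the other APP/PS1 females lay below it. Fosl2, with the smallest p of the list, differed by 0.50 (SE 0.211, edgeR adjusted p = 0.994). The list score followed single libraries, at 0.40, -0.04 and 0.06 in APP/PS1/Hras-/- females and -0.32, -0.31 and 0.22 in APP/PS1 females. The score is the mean log2 CPM of the tested members, centred over the 6 females. Leaving out APP/PS1/Hras-/- female 1 gave a median of 0.03, and leaving out APP/PS1 female 3 gave 0.44.

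Microglial genes lay lower in APP/PS1/Hras-/- females, without a call. Of 46 genes of plaque-associated microglia 44 passed the filter, 41 lay lower and 3 higher, the median was -0.24, and for 10 the groups did not overlap, all 10 lower (22.7%, against 5.34% of all genes). Of 22 homeostatic microglial markers 21 passed, 19 lay lower, the median was -0.21, and 8 were lower without overlap (38.1%). In bulk tissue, fewer cells of a type and less RNA per cell cannot be told apart. Cd84, an adhesion receptor of leukocytes, had 7.36, 7.83 and 5.55 CPM in APP/PS1/Hras-/- females and 9.42, 10.2 and 13.5 CPM in APP/PS1 females (-0.68, SE 0.23). Apoe, the lipid carrier, had 1173, 1087 and 1112 CPM in APP/PS1/Hras-/- females and 1309, 1330 and 1341 CPM in APP/PS1 females (-0.24, SE 0.109). P2ry13, a purinergic receptor of resting microglia, had 15.8, 15.6 and 14.9 CPM in APP/PS1/Hras-/- females and 18.7, 19.4 and 20.8 CPM in APP/PS1 females (-0.35, SE 0.123). All 3 genes were lower in each APP/PS1/Hras-/- female, with an edgeR adjusted p of 0.994 each.

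The best known plaque markers had a wider spread between libraries. Trem2, the lipid-sensing receptor of microglia, had 64.8, 54.0 and 39.9 CPM in APP/PS1/Hras-/- females and 63.1, 57.6 and 78.7 CPM in APP/PS1 females (-0.33, SE 0.268). Cst7, a cystatin, had 32.2, 26.6 and 13.2 CPM in APP/PS1/Hras-/- females and 34.8, 30.9 and 46.7 CPM in APP/PS1 females (-0.65, SE 0.474). APP/PS1/Hras-/- female 3 was the lowest and APP/PS1 female 3 the highest for both. The list score showed the same ends, at -0.04, 0.01 and -0.45 in APP/PS1/Hras-/- females and 0.07, 0.10 and 0.31 in APP/PS1 females. The groups of scores did not overlap, and the median was -0.15 without APP/PS1/Hras-/- female 3. The summed levels of the list did overlap, at 5202 to 6190 CPM in APP/PS1/Hras-/- females and 6115 to 6869 CPM in APP/PS1 females. Lysosomal hydrolases passed in 32 of 35 cases, with 28 lower, a median of -0.12 and 9 lower without overlap (28.1%, against 5.34% of all genes). Gusb, a glucuronidase, had 30.3, 30.3 and 23.8 CPM in APP/PS1/Hras-/- females and 37.4, 30.8 and 44.1 CPM in APP/PS1 females (-0.42, SE 0.159). The lists share members, Gusb among them, so their counts are not independent.

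Astrocyte and precursor markers leaned the same way. All 22 astrocyte transport and metabolism genes passed the filter and all 22 lay lower, with a median of -0.13 and no call. For 3 the groups did not overlap (13.6%, against 5.34% of all genes lower). The list score of APP/PS1/Hras-/- female 2, at 0.103, lay within the range of the APP/PS1 females, 0.0475 to 0.111. Slc1a3, a glutamate transporter, had 523, 617 and 528 CPM in APP/PS1/Hras-/- females and 689, 701 and 643 CPM in APP/PS1 females (-0.29, SE 0.0958). Aqp4, the water channel of astrocyte endfeet, had 140.2, 140.0 and 129 CPM in APP/PS1/Hras-/- females and 178, 199 and 158 CPM in APP/PS1 females (-0.39, SE 0.165). Both genes were lower in every APP/PS1/Hras-/- female. Of 30 reactive astrocyte genes 24 passed and 20 lay lower, with a median of -0.17. Leaving out APP/PS1/Hras-/- female 3 gave medians of -0.08 for the transport genes and -0.09 for the reactive genes, and leaving out APP/PS1/Hras-/- female 2 gave -0.23 for the transport genes. Among the reactive genes Gfap, the intermediate filament, had 1048, 959.9 and 964 CPM in APP/PS1/Hras-/- females and 1235, 1103 and 1110 CPM in APP/PS1 females (-0.21, SE 0.224).

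Of 16 oligodendrocyte precursor markers all 16 passed the filter and 14 lay lower, with a median of -0.20 and 4 without overlap (25%, against 5.34% of all genes). Pdgfra, the growth factor receptor of precursors, had 51.6, 59.2 and 55.2 CPM in APP/PS1/Hras-/- females and 71.5, 84.4 and 66.2 CPM in APP/PS1 females (-0.42, SE 0.131, edgeR adjusted p = 0.994). Ptprz1, a receptor phosphatase on chromosome 6, had 208, 236 and 191 CPM in APP/PS1/Hras-/- females and 289.9, 299 and 249.6 CPM in APP/PS1 females (-0.40, SE 0.146, edgeR adjusted p = 0.994). Both receptors were lower in all 3 APP/PS1/Hras-/- females. The median of the list stayed between -0.24 and -0.19 with each library left out in turn. Myelin genes did not lean that way, with 20 of 23 tested genes higher and a median of 0.12, which turned to -0.08 when APP/PS1/Hras-/- female 2 was left out and to -0.05 when APP/PS1 female 2 was.

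**Figure D4:**
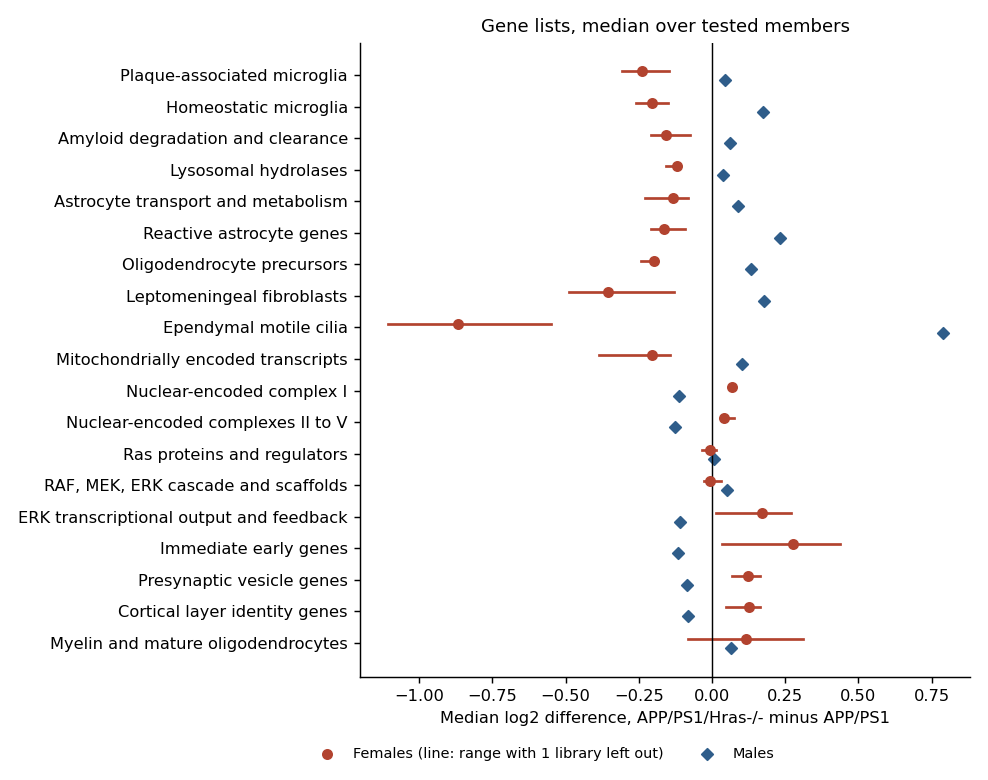
Median log2 difference (APP/PS1/Hras-/- minus APP/PS1) over the tested members of 19 gene lists, in females (circles, with a line for the range when 1 female library is left out) and in males (diamonds). In females the microglial, astrocyte and oligodendrocyte precursor lists lie between -0.24 and -0.13 and immediate early genes at 0.28, and the male median has the opposite sign for every list shown but myelin. The lists shown were picked from 39. Among those not shown, striatal, subcortical neuron, interneuron, chemokine, cholesterol and endoplasmic reticulum stress genes had the same sign in both sexes. The rest of those not shown had opposite signs.

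Genes of the respiratory chain split by genome. Nuclear-encoded complex I subunits lay higher in APP/PS1/Hras-/- females in 33 of 36 tested cases (of 38), with a median of 0.07 and 7 higher without overlap (19.4%, against 3.93% of all genes). Their summed level was 2392, 2379 and 2373 CPM in APP/PS1/Hras-/- females and 2280, 2241 and 2281 CPM in APP/PS1 females. The sums did not overlap, and the difference between the groups was larger than the range within either. Ndufa8, an accessory subunit, had 65.5, 70.8 and 71.1 CPM in APP/PS1/Hras-/- females and 61.9, 60.6 and 62.2 CPM in APP/PS1 females (0.17, SE 0.0805, edgeR adjusted p = 0.994). The median of complex I stayed between 0.04 and 0.08 under every scaling, filter, count model, covariate and omission tried. Complexes II to V lay higher in 33 of 39 tested cases with a median of 0.04.

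All 13 mitochondrially encoded transcripts lay lower in APP/PS1/Hras-/- females, with a median of -0.21 (-0.39 when APP/PS1/Hras-/- female 2 was left out) and no call. Their scores were -0.41, 0.09 and -0.23 in APP/PS1/Hras-/- females and 0.08, 0.38 and 0.08 in APP/PS1 females, and APP/PS1/Hras-/- female 2 lay within the range of the APP/PS1 females. The share of all counts from mitochondrial genes was 3.83% ± 0.635 in APP/PS1/Hras-/- females and 4.34% ± 0.366 in APP/PS1 females (SD, n = 3 each, 2-sided exact permutation p = 0.3). mt-Co3 had 10.1, 12.7 and 12.3 CPM in APP/PS1/Hras-/- females and 18.2, 110 and 16.6 CPM in APP/PS1 females, with APP/PS1 female 2 far above the rest (-2.04, SE 0.666, edgeR adjusted p = 0.994).

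**Figure D5:**
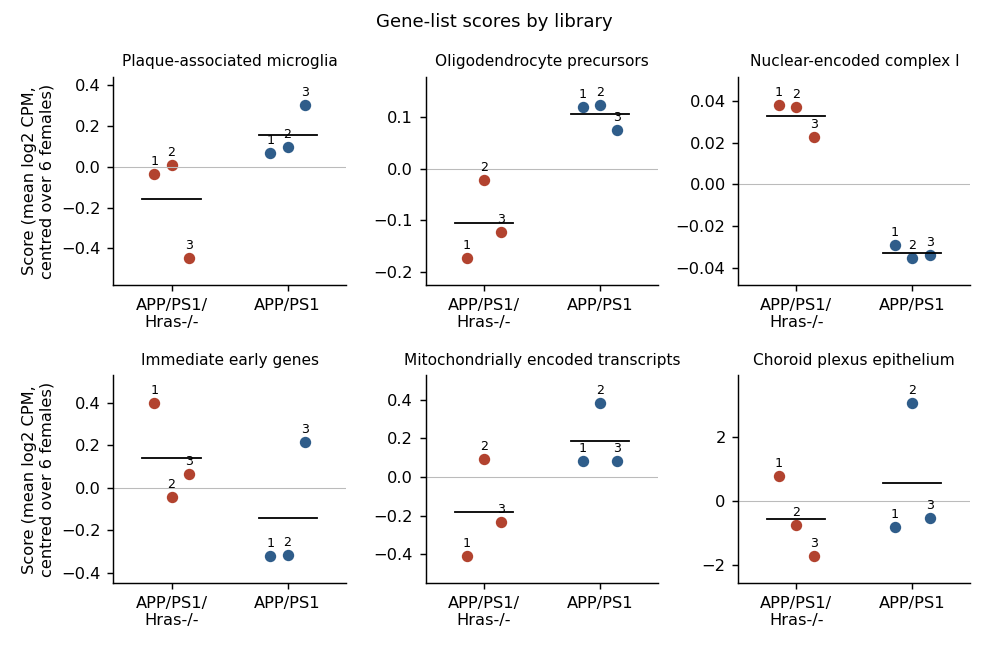
Scores of 6 gene lists in each female library, numbered by replicate, as mean log2 CPM of the tested members centred over the 6 females, with APP/PS1/Hras-/- on the left and a line at each group mean. Complex I, oligodendrocyte precursor and plaque-associated microglia scores do not overlap, while immediate early and mitochondrially encoded scores do, and APP/PS1 female 2 stands at 3.07 for choroid plexus.

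Markers of tissue next to the cortex also differed between libraries. Of 21 choroid plexus genes 13 passed the filter and all 13 lay lower in APP/PS1/Hras-/- females, with a median of -1.996, but none was without overlap and the median was 0.53 without APP/PS1 female 2 and -3.04 without APP/PS1/Hras-/- female 1. The summed choroid plexus level ran from 233 to 1178 CPM in APP/PS1/Hras-/- females and from 348 to 5230 CPM in APP/PS1 females. Of 22 genes of ependymal motile cilia 15 passed and all 15 lay lower, with a median of -0.87 (-0.55 without APP/PS1 female 2). For 6 the groups did not overlap (40.0%, against 5.34% of all genes lower). Of the 15, 1 reached 1 CPM in every APP/PS1 female and in no APP/PS1/Hras-/- female, so the filter fixed its direction. Cfap44, a ciliary protein, had 4.26, 4.91 and 6.05 CPM in APP/PS1/Hras-/- females and 7.29, 15.4 and 6.70 CPM in APP/PS1 females (-0.94, SE 0.307, edgeR adjusted p = 0.994). Of 24 leptomeningeal fibroblast genes 22 passed and all 22 lay lower, with a median of -0.36 (-0.13 without APP/PS1 female 2) and a summed level of 470 to 605 CPM in APP/PS1/Hras-/- females and 569 to 804 CPM in APP/PS1 females. Neurons of neighbouring regions varied as well. Striatal projection neuron genes lay lower in 20 of 23 tested cases (of 25), with a median of -0.28 that ran from -0.48 without APP/PS1/Hras-/- female 3 to -0.11 without APP/PS1 female 2 (-0.16 without APP/PS1/Hras-/- female 2, -0.47 without APP/PS1 female 3), and summed levels overlapped at 965 to 1242 CPM in APP/PS1/Hras-/- females and 996 to 1535 CPM in APP/PS1 females. Genes of septal, thalamic and hypothalamic neurons lay lower in 16 of 19 tested cases (of 30), with a median of -0.27 (-0.54 when APP/PS1 female 3 was left out), and their sums overlapped too, at 336 to 411 CPM in APP/PS1/Hras-/- females and 337 to 693 CPM in APP/PS1 females. Cortical layer identity genes lay higher in 18 of 25 tested cases (of 26), with a median of 0.12, and presynaptic vesicle genes in 17 of 21 (of 23), also with a median of 0.12. With APP/PS1 female 2 left out these medians were 0.05 for layer identity and 0.07 for presynaptic genes. Without APP/PS1 female 2 the medians were -0.24 for plaque-associated microglia, -0.25 for homeostatic microglia, -0.15 for astrocyte transport and -0.23 for oligodendrocyte precursors. That omission cannot separate tissue content from genotype, since other libraries differed in tissue content too. Trh, of the septal, thalamic and hypothalamic list, was at 10.9 CPM in APP/PS1 female 1 and 1.14 CPM in APP/PS1 female 3. In APP/PS1/Hras-/- females it was at 0.712 to 1.81 CPM. The part of tissue content in the glial differences was not tested.

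The female effect was then set against the male one. No gene differed between the sexes in its response to Hras loss by edgeR, DESeq2 or limma-voom (0% called by each), while 1052 (7.04%) had an unadjusted interaction p under 0.05 in edgeR. That number was 572 without APP/PS1 female 2 and 1518 without APP/PS1 female 3. In males Hras had a log2 difference of -2.03 (SE 0.103), with means of 21.6 ± 1.495 CPM in APP/PS1/Hras-/- males and 88.1 ± 10.8 CPM in APP/PS1 males (SD, n = 3 each). Gm5905 differed by 7.09 in males (SE 0.235), with 54.4 ± 4.26 CPM in APP/PS1/Hras-/- males and 0.373 ± 0.218 CPM in APP/PS1 males (SD, n = 3 each). These 2 genes (0.0134%) were the only ones called in males by edgeR, and neither differed between the sexes (interaction 0.15, SE 0.142, edgeR adjusted p = 0.783 for Hras, and -0.69, SE 0.397, edgeR adjusted p = 0.682 for Gm5905). Lrrc56 differed by 0.97 in females and 0.86 in males. Gm13394 (other observations) was not called in males. It had 2499, 2532 and 2321 counts in APP/PS1/Hras-/- males and 27, 23 and 19 counts in APP/PS1 males. The fit shared its estimate of the spread over all 12 libraries, and APP/PS1 female 2 had 2274 counts of Gm13394.

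Of the 73 chromosome 6 genes at an unadjusted p under 0.05 in females, 36 (49.3%) had the same sign in males, close to an even split, while 115 of 500 (23%) elsewhere had the same sign, fewer than an even split. In males 601 of all genes (4.02%) had an unadjusted p under 0.05, with 5.10% on chromosome 6 and 3.96% elsewhere. Gapdh differed by -0.53 in females and -0.49 in males, and Anxa4 by 1.27 and 0.86, while Mbd4 differed by -0.77 and -0.29 and Polr1a by -0.53 and -0.12. Some glial markers had the other sign in males, with -0.42 in females and 0.44 in males for Pdgfra (interaction -0.86, edgeR adjusted p = 0.677) and -0.39 and 0.34 for Aqp4. Plaque-associated microglia had a median of -0.24 in females and 0.05 in males, oligodendrocyte precursors -0.20 and 0.13, complex I 0.07 and -0.11, and immediate early genes 0.28 and -0.12. Striatal projection neuron genes kept their sign, at -0.28 in females and -0.15 in males. Genes of septal, thalamic and hypothalamic neurons did so too, at -0.27 and -0.07. Crocc2, a rootletin relative, had an interaction of -3.06 (SE 0.697) and Rnaseh2c, a subunit of ribonuclease H2, one of 0.87, each with an edgeR adjusted p of 0.677. Crocc2 was near the floor, with means of 0.381 CPM in APP/PS1/Hras-/- females and 1.30 CPM in APP/PS1 females. Its male means were 1.45 CPM in APP/PS1/Hras-/- and 0.592 CPM in APP/PS1 mice. Crocc2 passed the filter through the APP/PS1 females alone. A difference between the sexes was thus not shown for any gene.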

How the data were processed

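Read counts per gene were deposited by the authors as a table of 12 libraries, as raw counts without normalisation. Per the labels' protocols, libraries came from the TruSeq Stranded mRNA workflow. Per the submitters' processing notes, Trimmomatic 0.33, FastQC 0.11.7, HISAT2 2.1.0 and featureCounts were used, and the builds mm10 and mm9 are named without a role. Neither the annotation release nor the strand setting of the counting is given in the sources used here. Reads of antisense or overlapping genes may not be told apart. Symbols and GRCm38 positions were taken from GENCODE M21. No entry was found there for 37 genes, which held 0.00986% of the counts.

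Counts were fitted with edgeR 4.0.16 (R 4.3.3; TMM scaling, robust quasi-likelihood test, 4 group means over all 12 libraries), with Benjamini-Hochberg adjustment over 14951 genes and a threshold of 0.05. These genes held 96.4% to 96.8% of the counts of each library. Fold changes are on the log2 scale, and intervals are ± 1.96 SE. DESeq2 1.42.0 and limma 3.58.1 (voom) were alternatives. The fits were tested on simulated data. Single values of 3 against 3 mice were compared by exact permutation, whose smallest 2-sided p is 0.1.

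Named genes were Hras, App, Prnp, those called by edgeR or DESeq2, the 12 protein-coding genes with the smallest p in each direction, the 2 highest and the 2 with the smallest p in each list, 3 tested neighbours on each side of Hras, and 3 interactions in each direction. The 39 lists, the members and the tests were chosen with earlier results of these data known, and no p was computed over a list. Replicate numbers follow the order of deposit. Some genes that the rule names are not reported here.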

Additional observations from a re-analysis of the deposited data

How the results depend on the processing

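Hras and Gm5905 were called under every setting run. The number of genes called in females was 5 with DESeq2 and 4 without a filter on low counts (Gm22019 and Lrrc56 added), and 2 to 3 with each female library left out in turn. It was 3 with the 6 female libraries alone (adding Gm7335) and at a threshold of 0.1 (adding Lrrc56). The interaction count was 0 to 0 over the omissions and 0 under the other settings. Genes at an unadjusted p under 0.05 numbered 943 without a filter, 884 with RIN as a covariate, 866 without APP/PS1/Hras-/- female 2, 270 without APP/PS1 female 2 and 888 without APP/PS1 female 3, so that number moved with single libraries. Small differences changed sign. Prnp was at 0.003406 without a filter, 0.003791 with filterByExpr and 0.029 with a covariate for the split of the 12 libraries that 6 genes share (other observations), an alternative chosen after seeing the data. The Hras interaction was -0.33 with RIN as a covariate (edgeR adjusted p = 0.58). Over the omissions the log2 difference ran from -1.75 to 0.29 for Enpp2, -0.14 to 0.34 for Irf7, -0.12 to 0.00035 for Nras, -0.00041 to 0.050 for Phrf1, -0.091 to 0.073 for Prnp, -0.12 to 0.014 for Rnh1 and -5.05 to 2.15 for Ttr. The cause of these changes was not tested. No paired analysis was possible because the labels give no replicate numbers. With 3 mice a group and 13984692 to 20174131 counts a library, small differences may have been missed. The intervals given are not limits of detection, since Lrrc56 (0.97, SE 0.141) was not called by edgeR at the threshold of 0.05.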

Other observations

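Some genes moved in steps between libraries rather than by genotype, and these were picked after their values were seen. A gap of more than 2 on the scale of log2(CPM + 0.25) between neighbouring female libraries was found for 55 tested genes with a level above 2 CPM. Of these, Gm5905 alone separated the APP/PS1/Hras-/- from the APP/PS1 females. APP/PS1 female 2 lay alone above the other 5 females for 15 of them, 8 of which were choroid plexus genes. Pseudogenes made up 19 of the 55 (34.5%), against 457 (3.06%) of all tested genes.

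A set of 6 genes on 4 chromosomes split the 12 libraries in the same way across genotype and sex. They were Gm10260 and Gm11361 on chromosome 13, Gm13443 on chromosome 2, Atp6v0c-ps2 and Gm9825 on chromosome 6 and Rps2-ps10 on chromosome 18. Each was high in APP/PS1/Hras-/- female 3, APP/PS1/Hras-/- males 1 and 2, APP/PS1 females 1 and 3 and APP/PS1 male 1, and low in the other 6 libraries. Atp6v0c-ps2, a processed pseudogene, had 1.16, 0.997 and 100.4 CPM in APP/PS1/Hras-/- females and 79.7, 1.21 and 72.2 CPM in APP/PS1 females. The next commonest split was shared by 4 genes.

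Gm13394 on chromosome 2 had 2473, 3868 and 6123 counts in APP/PS1/Hras-/- females and 16, 2274 and 32 counts in APP/PS1 females. In males it had 2499, 2532 and 2321 counts in APP/PS1/Hras-/- mice and 27, 23 and 19 counts in APP/PS1 mice. APP/PS1 female 2 was thus the single APP/PS1 library at the level of the APP/PS1/Hras-/- libraries. The log2 difference in females was 2.54, and without that library it was 7.73 (edgeR adjusted p = 2.39e-05). Gm7335 on chromosome 17 had 49, 42 and 50 counts in APP/PS1/Hras-/- females and 166, 153 and 235 counts in APP/PS1 females. In males it had 47, 205 and 44 counts in APP/PS1/Hras-/- mice and 93, 162 and 48 counts in APP/PS1 mice, so the groups overlapped.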
